A study of Mus musculus with 6 samples.

Results

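The insulin-like growth factor (IGF) system was followed in cancer-associated fibroblasts (CAFs) of mouse colonic tumors through 10 genes: the ligands Igf1 and Igf2, the receptors Igf1r and Igf2r, and the binding protein genes Igfbp2 to Igfbp7. They were picked by gene name from the 49548 genes of the deposited table, and all 10 had enough reads to be tested. The tumors were adenomas induced with azoxymethane (AOM), a carcinogen, and dextran sodium sulfate (DSS), which causes colitis, in C57/BL6 mice that carried both Col6a1-cre and the Rosa26-mTmG reporter. In this reporter, Cre recombination switches a cell from Tomato to GFP, so GFP marks cells in which the Col6a1 promoter driving Cre was active at some time. Cells negative for CD45, EpCAM, CD31 and Ter119 were sorted into GFP+ cells (Col6a1+ CAFs, 3 libraries) and Tomato+ cells (Col6a1- CAFs, 3 libraries). Both groups came from mice of the same genotype and treatment, and each library came from tumors pooled over several mice. Whether a GFP+ and a Tomato+ library shared a pool is not given in the labels. Neither group is a single cell type, since the Cre driver is active in mural cells as well as in some fibroblasts, and the Tomato+ gate takes whatever unlabeled stroma remains. The ages of the mice behind each library are not given in the labels.

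IGF1 and IGF2 are secreted growth factors that act through IGF1R, a receptor tyrosine kinase that signals to the PI3K-AKT and MAP kinase pathways. IGF2R, also known as the cation-independent mannose 6-phosphate receptor, has no kinase and carries IGF2 to lysosomes. The binding proteins hold IGFs in serum and tissue, and can either withhold ligand from the receptor or keep it near the cell. Fibroblasts and other stromal cells are a well-known local source of IGFs and IGF-binding proteins, which act on neighboring epithelium.

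The libraries are QuantSeq 3′ mRNA libraries, which give reads at the 3′ ends of transcripts, and the values below are normalized counts, meaning reads per gene divided by the size factor of the library. Between 2568000 and 4519000 reads in genes per library were estimated from the spacing of the low values. Col6a1, the gene of the Cre driver, had 861, 1287 and 1941 normalized counts in Col6a1+ CAFs and 182, 321 and 102 in Col6a1- CAFs. Cell type markers also differed between the groups, so the IGF values sit beside other differences in make-up. The 7 pericyte markers were all higher in Col6a1+ CAFs (summed normalized counts of 41437 to 90948, against 1147 to 2141), as were 5 of the 9 pan-fibroblast markers (42578 to 47588, against 9031 to 16437), 5 of the 7 smooth muscle markers and 4 of the 7 telocyte markers, while 2 of the 9 trophocyte markers were lower. Epithelial markers were lower in Col6a1+ CAFs for 8 of 10 genes, with summed counts of 5738 to 6280 against 20198 to 33923, although EpCAM+ cells had been sorted out. The summed counts of the 10 immune markers were 112 to 293 in Col6a1+ CAFs and 389 to 629 in Col6a1- CAFs. S100a8, a neutrophil gene, was lower in Col6a1+ CAFs (23, 17 and 29 counts, against 211, 387 and 167), Ptprc, Lyz2 and Cd68 were apart in the same direction without a call, and Cd3e, Cd79a and Adgre1 had at most 3 counts in every library. No endothelial, erythroid or glial marker passed the test. Col6a1+ replicate 1 stood apart, with 14530 genes detected against 18770 to 20511 in the other libraries. In bulk samples of this kind, fewer cells of a type and less RNA per cell cannot be told apart. The part of these marker differences in the IGF results was not tested. Values per fibroblast marker count are given further below as another scale, and do not separate out any cell type.

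Of the 10 genes, 3 were higher in Col6a1+ CAFs, Igf2, Igf2r and Igfbp7, and none was lower. The test was limma's moderated test over 26402 genes, called at a Benjamini-Hochberg adjusted p under 0.05. In that test 2.66% of all genes were called higher and 1.96% lower, 4.62% in all. At an unadjusted p under 0.05, 5 of the 10 genes passed, and all 5 had higher values in Col6a1+ CAFs, against 6.63% higher and 9.4% lower over all genes. The limma-voom fit called 2 of the 10, both higher, and 0 lower, against 771 genes higher and 798 lower of all 26402. The log2 fold change, taken throughout as Col6a1+ minus Col6a1- CAFs on the log2 scale of the normalized count plus 1, was above 0 for 9 of the 10 genes. Its median was 1.04 over the 10 genes and -0.27 over all genes tested. In 4 genes, the 3 called ones and Igfbp5, the lowest Col6a1+ value exceeded the highest Col6a1- value, as in 7.91% of all genes. The reverse held for 0 of the 10 and for 11.6% of all genes. Among genes averaging 10 or more normalized counts, as 9 of the 10 do, the shares were 14.2% and 17.6%. When the replicate number was fitted as a block, none of the 10 genes was called, nor was any gene in the table. In that fit 6 of the 10 had an unadjusted p under 0.05, against 1851 genes higher and 2567 lower of all 26402. The same block over the 13515 genes averaging 10 or more counts called 4 of the 10, Igf2, Igf1r, Igf2r and Igfbp7. Of those 13515 genes, it called 981 higher and 871 lower.

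**Figure D1:**
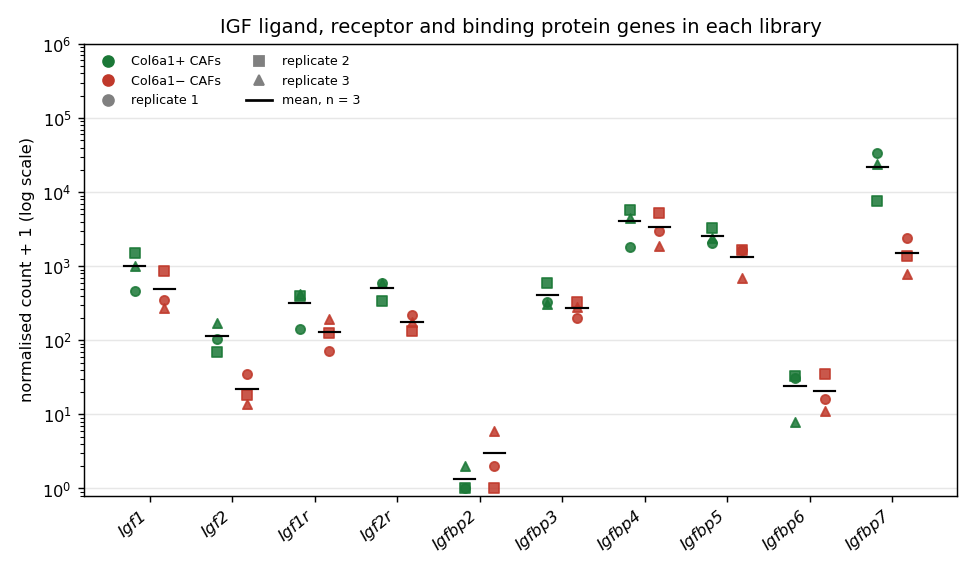
Normalized counts plus 1 of the 10 IGF genes in each of the 6 libraries, on a log10 axis, with Col6a1+ and Col6a1- CAFs in separate colors and a bar at each group mean. For Igf2, Igf2r, Igfbp5 and Igfbp7 all 3 Col6a1+ libraries lie above all 3 Col6a1- libraries.

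Of the ligands, Igf2 was higher in Col6a1+ CAFs. Igf2 (ENSMUSG00000048583, mm10 chr7:142650766-142666816, minus strand) is an imprinted gene, expressed mainly from the paternal allele and best known as a fetal growth factor. It had 104, 69 and 168 normalized counts in Col6a1+ replicates 1, 2 and 3, and 34, 17 and 13 in the Col6a1- replicates. The lowest Col6a1+ library held about as many counts as all the Col6a1- libraries together, and the groups did not overlap. The log2 fold change was 2.38 (SE 0.55, 95% confidence interval 1.15 to 3.61, limma adjusted p = 0.0369). It kept its direction in each fit that left out 1 library, at 2.05 to 2.76, but the call was lost in all 6 of these fits (limma adjusted p 0.0839 to 0.195) and with the replicate block (limma adjusted p = 0.132); its 15 alternatives ran from 0.028 to 0.436.

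Igf1 (ENSMUSG00000020053, chr10:87858265-87937042, plus strand), the ligand that growth hormone induces in liver and many tissues, was at a higher level than Igf2, also per kilobase of gene model. Its values were 455, 1526 and 1017 normalized counts in Col6a1+ CAFs and 346, 853 and 275 in Col6a1- CAFs. The groups overlapped, because Col6a1+ replicate 1 fell below Col6a1- replicate 2, although the Col6a1+ library was the higher one of the same number in 3 of 3 pairs. Among genes with overlapping groups, Igf1r and Igfbp3 also reached 3 of 3, and the share of all genes that do so was not computed. The log2 fold change of Igf1, 1.04 (SE 0.51, 95% confidence interval -0.09 to 2.16), did not pass (limma adjusted p = 0.355). The interval leaves room for no difference and for a large one.

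Each library held more Igf1 than Igf2 counts, with 4.38, 22.1 and 6.05 Igf1 counts per Igf2 count in Col6a1+ CAFs and 10.2, 50.2 and 21.2 in Col6a1- CAFs. Replicate 2 had the highest ratio in both groups, and the ranges of the groups overlapped.

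Both receptor genes had higher means in Col6a1+ CAFs, and Igf2r passed the test. Igf2r (ENSMUSG00000023830, chr17:12682406-12769664, minus strand) had 597, 337 and 596 normalized counts in Col6a1+ CAFs and 220, 131 and 176 in Col6a1- CAFs. The groups were apart, with the lowest value in replicate 2 in both. The log2 fold change was 1.52 (SE 0.35, 95% confidence interval 0.74 to 2.29, limma adjusted p = 0.0352). Without 1 library it stayed between 1.32 and 1.79, while the call was lost in all 6 such fits (limma adjusted p 0.0526 to 0.173) and with the replicate block (limma adjusted p = 0.0719), and its alternatives ran from 0.00904 to 0.667.

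Igf1r (ENSMUSG00000005533, chr7:67952827-68233668, plus strand), the signaling receptor, had 139, 397 and 422 normalized counts in Col6a1+ CAFs and 71, 126 and 194 in Col6a1- CAFs. Col6a1+ replicate 1 lay below Col6a1- replicate 3, so the groups overlapped, while the Col6a1+ library was the higher one in 3 of 3 same-numbered pairs. The log2 fold change was 1.24 (SE 0.51, 95% confidence interval 0.12 to 2.36) and was not called (limma adjusted p = 0.246). It passed only in the blocked fit restricted to genes averaging 10 or more normalized counts (limma adjusted p = 0.0306). Igf2r counts per Igf1r count were 4.29, 0.849 and 1.41 in Col6a1+ CAFs and 3.1, 1.04 and 0.907 in Col6a1- CAFs, highest in replicate 1 of each group.

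**Figure D2:**
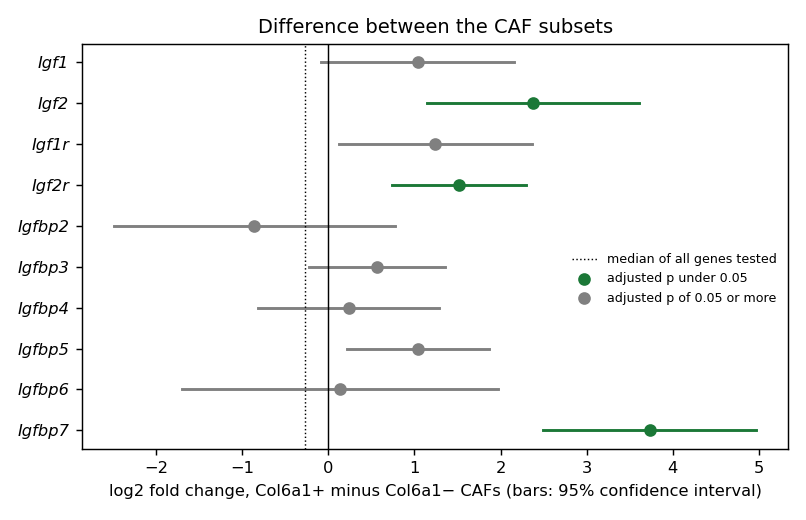
Log2 fold change of each IGF gene, Col6a1+ minus Col6a1- CAFs (x axis), with bars for the 95% confidence interval and green points for an adjusted p under 0.05. Igf2, Igf2r and Igfbp7 are green, and the dotted line marks the median of all genes tested, -0.27.

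Igfbp7 had the largest log2 fold change of the 10 genes. Igfbp7 (ENSMUSG00000036256, chr5:77349240-77408041, minus strand) encodes a secreted protein that binds IGFs with low affinity and is known as a product of vascular and perivascular cells. It had 33739, 7481 and 24080 normalized counts in Col6a1+ CAFs and 2427, 1370 and 787 in Col6a1- CAFs. All 3 Col6a1+ libraries were above all 3 Col6a1- libraries, but Col6a1+ replicate 2 was far below the other two. The ratio of the group means was 14.2, and the log2 fold change was 3.73 (SE 0.56, 95% confidence interval 2.49 to 4.97, limma adjusted p = 0.00509). By mean normalized count, Igfbp7 ranked 3 among the genes of Col6a1+ CAFs and 298 among those of Col6a1- CAFs. Without 1 library the log2 fold change was 3.28 to 4.37, and the call held only without Col6a1+ replicate 2 (limma adjusted p = 0.0161). It was lost when any 1 of the other 5 libraries was left out (limma adjusted p up to 0.116) and with the replicate block (limma adjusted p = 0.0684), and its alternatives ran from 0.00242 to 0.174. The pericyte markers moved in the same direction as Igfbp7, and their part in its difference was not tested.

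Igfbp5 (ENSMUSG00000026185, chr1:72857932-72874884, minus strand), whose product binds extracellular matrix, did not overlap between the groups but was not called. Its values were 2062, 3277 and 2437 normalized counts in Col6a1+ CAFs and 1636, 1645 and 696 in Col6a1- CAFs. The log2 fold change was 1.04 (SE 0.37, 95% confidence interval 0.22 to 1.87, limma adjusted p = 0.17). Igfbp4 (ENSMUSG00000017493, chr11:99041244-99054392, plus strand), a binding protein that the protease PAPP-A cleaves to free IGF, had 1842, 5782 and 4478 counts in Col6a1+ CAFs and 3017, 5208 and 1858 in Col6a1- CAFs. The groups overlapped almost completely, and the log2 fold change of 0.24 (95% confidence interval -0.82 to 1.29, limma adjusted p = 0.794) turned to -0.10 without Col6a1+ replicate 2 and to -0.13 without Col6a1- replicate 3. Igfbp3 (ENSMUSG00000020427, chr11:7206086-7213923, minus strand), the main IGF carrier of serum, had 326, 593 and 306 counts in Col6a1+ CAFs and 197, 327 and 282 in Col6a1- CAFs. These also overlapped (log2 fold change 0.57, 95% confidence interval -0.22 to 1.35, limma adjusted p = 0.495).

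The other two binding protein genes were at low levels. Igfbp6 (ENSMUSG00000023046, chr15:102144362-102149511, plus strand), whose product prefers IGF2, had 30, 32 and 7 normalized counts in Col6a1+ CAFs and 15, 34 and 10 in Col6a1- CAFs (limma adjusted p = 0.944). Its confidence interval of -1.70 to 1.97 on the log2 scale spans large differences in either direction. Igfbp2 (ENSMUSG00000039323, chr1:72824503-72852474, plus strand) had 0, 0 and 1 counts in Col6a1+ CAFs and 1, 0 and 5 in Col6a1- CAFs, near the 3 counts that a value of 0 allows. A difference in Igfbp2 was not detectable at this depth (limma adjusted p = 0.603).

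As a share of the counts summed over the 6 binding protein genes, Igfbp7 made up 88.8%, 43.6% and 76.9% in Col6a1+ CAFs and 33.3%, 16% and 21.6% in Col6a1- CAFs. The lowest Col6a1+ share was above the highest Col6a1- share. Igfbp4 took 4.85%, 33.7% and 14.3% in Col6a1+ CAFs and 41.4%, 60.7% and 51.1% in Col6a1- CAFs, the reverse order with no overlap. In Col6a1+ replicate 2 the share of Igfbp7 was the lowest of its group, and those of Igfbp4 and Igfbp5 (19.1%) were the highest. The summed counts were 37999, 17165 and 31309 in Col6a1+ CAFs and 7293, 8584 and 3638 in Col6a1- CAFs. The mean share of Igfbp7 was 69.8% ± 23.4 (SD, n = 3) in Col6a1+ CAFs and 23.6% ± 8.83 in Col6a1- CAFs. Leaving out Igfbp7 the sums were 4260, 9684 and 7229 against 4866, 7214 and 2851, and the groups overlapped. Since shares sum to a whole, a high share of Igfbp7 lowers those of the other genes.

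**Figure D3:**
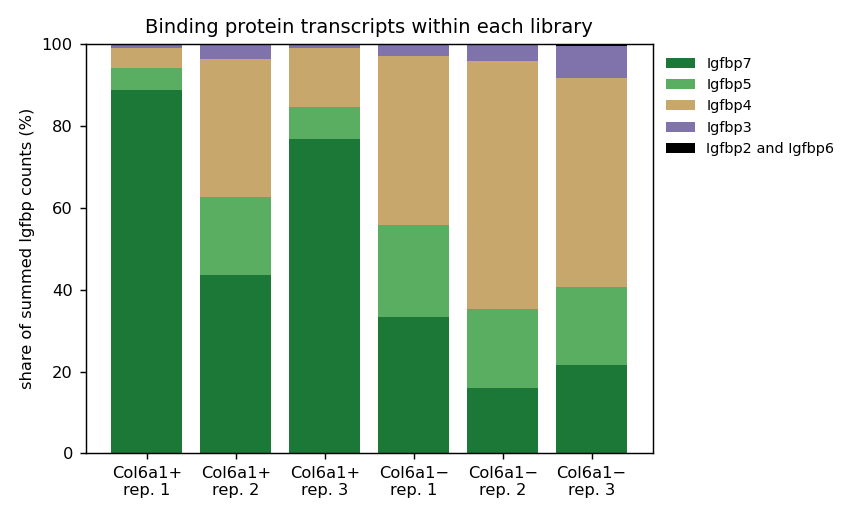
Share of the normalized counts summed over Igfbp2 to Igfbp7 that each gene took, in percent, for each of the 6 libraries. Igfbp7 holds 43.6% to 88.8% in the Col6a1+ libraries and 16% to 33.3% in the Col6a1- libraries, in which Igfbp4 is the largest share.

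Because pan-fibroblast marker counts were higher in Col6a1+ CAFs, the IGF genes were also expressed per 1000 counts of the 9 pan-fibroblast markers, a scale added after seeing the data. On this scale Igfbp7 was 792, 161 and 506 in Col6a1+ CAFs and 148, 85.3 and 87.1 in Col6a1- CAFs, still apart, as are 1.61% of all genes in that direction. Igfbp4 was 43.3, 125 and 94.1 against 184, 324 and 206, and Igfbp5 48.4, 70.6 and 51.2 against 99.5, 102 and 77.1. Both were lower in every Col6a1+ library than in every Col6a1- library, as was Igfbp6, and 42.2% of all genes lay apart in that direction. For Igf2r the values were 14, 7.26 and 12.5 against 13.4, 8.16 and 19.5, and for Igf2 they were 2.44, 1.49 and 3.53 against 2.07, 1.06 and 1.44. Both overlapped on this scale, as did Igf1, Igf1r and Igfbp3. With libraries scaled to these markers before the fit, the log2 fold change over all genes had a median of -1.45. Igfbp7 was then called higher (1.96, limma adjusted p = 0.00729) and Igfbp4 lower (-1.53, limma adjusted p = 0.015), and the sign for Igf2r turned to -0.25. Of the 25237 genes in this fit, 228 were called higher and 8875 lower. The value for Igfbp4 lay near the median of all genes, so its call is not particular to this gene. The direction for Igf2 stayed positive at 0.66 without a call (limma adjusted p = 0.436). Of the 3 called genes, Igfbp7 alone was called on both scales.

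**Figure D4:**
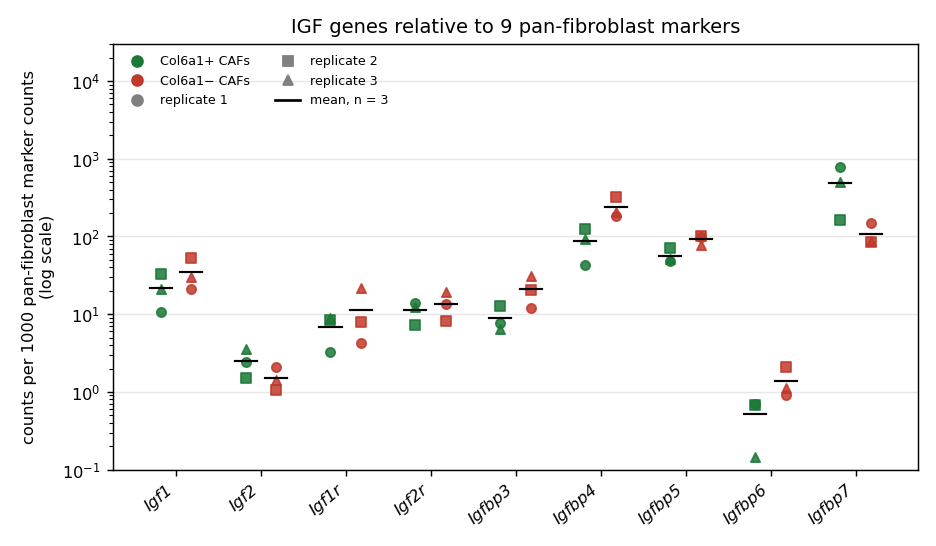
Normalized counts of IGF genes per 1000 summed counts of the 9 pan-fibroblast markers in each library, on a log10 axis. Igfbp7 is higher in all 3 Col6a1+ libraries, Igfbp4 and Igfbp5 are lower, and Igf2 and Igf2r overlap.

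Levels were compared between genes as normalized counts per kilobase of gene model. In Col6a1+ CAFs the order was led by Igfbp7 (14600 ± 8890 per kilobase, SD, n = 3), followed by Igfbp4 (758 ± 377), Igfbp5 (455 ± 109), Igfbp3 (115 ± 45.1), Igf1 (106 ± 57) and Igf2r (95.7 ± 28.1). Igf1r (25.5 ± 12.5), Igf2 (16.1 ± 7.13), Igfbp6 (15.7 ± 9.5) and Igfbp2 (0.211 ± 0.365) came last. Neighbors in this order were apart between Igfbp7 and Igfbp4, Igfbp5 and Igfbp3, Igf2r and Igf1r, and Igfbp6 and Igfbp2, and overlapped elsewhere. In Col6a1- CAFs Igfbp7 (1020 ± 556) overlapped with Igfbp4 (632 ± 320), and Igf2 (3.03 ± 1.58) lay in the last place but one, below Igfbp6 (13.4 ± 8.66) and Igf1r (10.4 ± 4.92). Because reads come from 3′ ends, dividing by length lowers long genes such as Igf1r relative to short ones. By counts without this division, Igf2 ranked 8 of the 10 genes in both groups, above Igfbp6. In Col6a1- CAFs Igfbp4 then ranked 1 and Igfbp7 2. In Col6a1+ CAFs Igf1, Igf2r and Igfbp3 ranked 4, 5 and 6.

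Several of these genes share their position with others, and the use of strand in counting is not given in the sources used here, so reads from overlapping genes may not be separated. The end of Igfbp7 overlaps Polr2b, on the opposite strand, by 85 bases, and Polr2b had 263, 110 and 154 normalized counts in Col6a1+ CAFs and 249, 124 and 127 in Col6a1- CAFs, below Igfbp7 in each library. Igf2r overlaps the antisense transcript Airn, which had 63, 35 and 96 counts against 15, 19 and 5. The annotated 3′ ends of Igf2r (12682406) and Airn (12860122) both lie outside the stretch they share. Airn was higher in each Col6a1+ library, the same direction as Igf2r. Igfbp2 and Igfbp5 lie 5457 bases apart on chromosome 1, on opposite strands.

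The promoters of the 3 called genes are shown for their base composition. Each is the RefSeq window on GRCm38.p6 (mm10) from 250 bases before to 50 after the annotated start, written 5′ to 3′ on the minus strand, with capitals for GGGCGG or its complement CCGCCC, the letters of the GC box.
Igfbp7, chr5:77407996-77408295: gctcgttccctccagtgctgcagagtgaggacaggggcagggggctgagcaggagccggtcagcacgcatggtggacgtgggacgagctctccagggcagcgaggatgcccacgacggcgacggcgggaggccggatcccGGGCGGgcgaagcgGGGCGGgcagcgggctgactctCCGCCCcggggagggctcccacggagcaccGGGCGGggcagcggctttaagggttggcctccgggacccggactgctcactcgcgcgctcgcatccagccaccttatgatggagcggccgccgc
Igf2r, chr17:12769657-12769956: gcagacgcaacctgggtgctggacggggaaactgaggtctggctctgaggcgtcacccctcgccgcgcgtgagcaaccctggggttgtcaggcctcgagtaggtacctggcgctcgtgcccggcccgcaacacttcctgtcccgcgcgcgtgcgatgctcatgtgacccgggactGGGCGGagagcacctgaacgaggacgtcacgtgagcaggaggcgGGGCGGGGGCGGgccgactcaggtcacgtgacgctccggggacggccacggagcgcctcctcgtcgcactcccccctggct
Igf2, chr7:142666767-142667066: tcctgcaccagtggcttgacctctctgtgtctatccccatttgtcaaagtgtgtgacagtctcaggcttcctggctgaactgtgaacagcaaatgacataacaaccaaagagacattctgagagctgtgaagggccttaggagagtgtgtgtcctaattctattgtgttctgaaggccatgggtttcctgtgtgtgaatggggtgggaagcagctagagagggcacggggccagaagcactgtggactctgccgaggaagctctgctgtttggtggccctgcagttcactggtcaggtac
The Igfbp7 and Igf2r windows held 33 and 34 CpG pairs, against a median of 7 over 32851 promoters (quartiles 3 and 20), and the Igf2 window shown held 2. The GC box letters occurred 4 times for Igfbp7, 3 times for Igf2r and not at all in the Igf2 window shown, and 35.7% of all promoters hold them on either strand. CACGTG, the E-box letters, occurred 2 times in the Igf2r window, and is found in 7.15% of promoters. Igf2 has 4 start sites in RefSeq, of which the one at the start of the deposited gene is shown. The windows of the others held 14, 24 and 7 CpG pairs and 0, 1 and 2 matches to the GC box letters, and 3′ reads cannot tell which was used.

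The wider IGF pathway was followed in 50 further genes, of which 48 could be tested. Of these, 6 were called higher in Col6a1+ CAFs and none lower (limma), against 2.66% higher and 1.96% lower over all genes. At an unadjusted p under 0.05 there were 14, of which 7 were higher, against 6.63% higher and 9.4% lower over all genes. The groups were apart for 8 with higher and 8 with lower values, as for 7.91% and 11.6% of all genes. Limma-voom called 6 higher and 1 lower, Igfals (adjusted p = 0.0322), against 771 higher and 798 lower over all genes tested. The median log2 fold change was 0.06, and 25 of the 48 were above 0. Insrr and Irs4 were at 0 in every library.

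Among proteases and other partners of the IGFs, 1 of 10 genes was called, higher in Col6a1+ CAFs, against 2.66% called higher over all genes. Stc1, a stanniocalcin known to inhibit PAPP-A, had 1026, 538 and 1330 normalized counts in Col6a1+ CAFs and 216, 188 and 191 in Col6a1- CAFs (log2 fold change 2.18, SE 0.36, limma adjusted p = 0.00747). The groups were apart, with little spread in Col6a1- CAFs. Pappa itself had 1, 216 and 130 counts against 14, 31 and 36, with Col6a1+ replicate 1 the lowest of all (limma adjusted p = 0.848). Igfbp1, the binding protein gene made chiefly in liver, had 0, 8 and 1 counts against 9, 20 and 58, and Igfals, for the acid-labile subunit, 0, 0 and 0 against 11, 3 and 3. Neither passed the limma test on log2 values. For Pappa and Igfbp1 the lowest value came from Col6a1+ replicate 1, the library with the fewest genes detected. Htra1, a protease that cleaves binding proteins and the most abundant of the list by counts, had 2529, 1416 and 1170 against 2108, 653 and 584, and overlapped.

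Of the 18 genes of the PI3K-AKT-mTOR branch, 3 were called, all higher in Col6a1+ CAFs, against 2.66% called higher over all genes. The groups were apart for 4 of the 18 in this direction and for 2 in the other, Pik3cb and Pik3r3, without a call. Pik3cb had 22, 4 and 7 normalized counts in Col6a1+ CAFs and 53, 45 and 62 in Col6a1- CAFs (limma adjusted p = 0.092). Pik3r3 had 7, 42 and 32 against 124, 80 and 96 (limma adjusted p = 0.101). Pik3r1, the p85 regulatory subunit of PI3-kinase, had 353, 434 and 594 normalized counts in Col6a1+ CAFs and 104, 121 and 152 in Col6a1- CAFs (log2 fold change 1.85, limma adjusted p = 0.0115). The groups were apart. Akt1, a kinase that PI3-kinase activates, had 1773, 696 and 1285 against 1478, 798 and 740, and overlapped (0.29, limma adjusted p = 0.692). None of the 9 insulin receptor and adaptor genes was called.

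The growth hormone axis had 2 of 5 genes called, both higher in Col6a1+ CAFs, against 2.66% called higher over all genes. Ghr, the growth hormone receptor, had 342, 262 and 260 normalized counts in Col6a1+ CAFs and 64, 108 and 53 in Col6a1- CAFs (log2 fold change 1.98, limma adjusted p = 0.0147). Socs2, a feedback inhibitor of growth hormone signaling, had 235, 248 and 262 against 73, 95 and 52 (1.79, limma adjusted p = 0.0189). Both were apart with a narrow spread within Col6a1+ CAFs. None of the 6 genes of the Igf2 locus and Igf2 RNA binding list was called. H19, the maternally expressed neighbor of Igf2 that lies 72622 bases away, had 0, 18 and 8 counts against 46, 29 and 40, lower in each Col6a1+ library, without a call (-2.80, limma adjusted p = 0.211). The 0 came from Col6a1+ replicate 1, the library with the fewest genes detected.

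With the replicate block, the limma adjusted p was 0.0717 for Stc1, 0.0612 for Pik3r1, 0.0901 for Ghr and 0.0905 for Socs2, and no pathway gene was called. The block over genes averaging 10 or more counts called 6 pathway genes, all higher, against 981 genes higher and 871 lower of all 13515. Scaled to the pan-fibroblast markers, the log2 fold changes were 0.42 for Stc1, 0.09 for Pik3r1, 0.23 for Ghr and 0.03 for Socs2, none of them called.

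**Figure D5:**
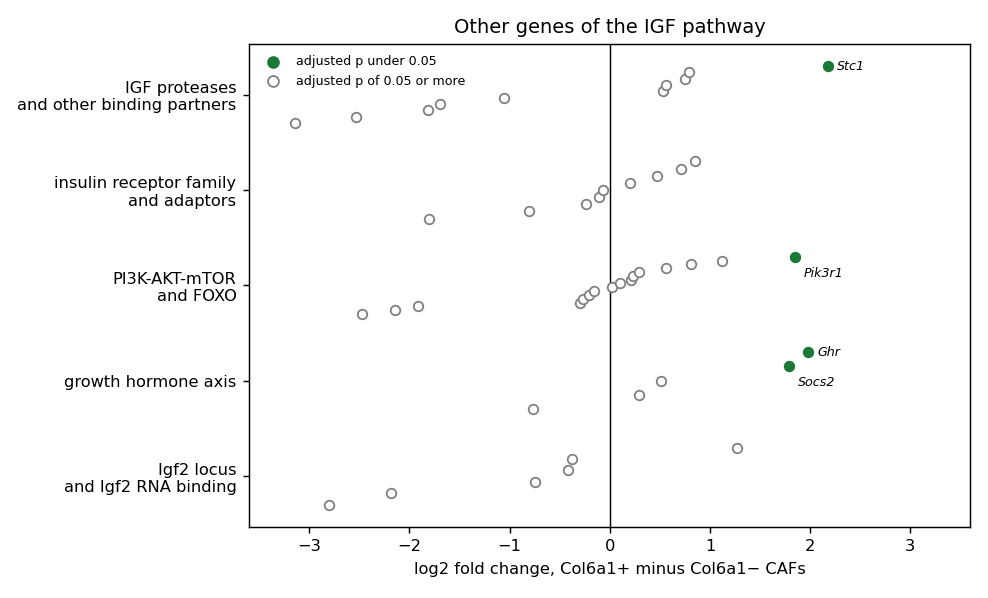
Log2 fold change, Col6a1+ minus Col6a1- CAFs (x axis), of 46 of the tested pathway genes in 5 lists, with filled points for an adjusted p under 0.05. The 4 filled points, at 1.79 to 2.18, stand among open points on both sides of 0.

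The genes whose pattern over the 6 libraries was most like each called gene were found by Pearson's r on the log2 values, among genes averaging 100 or more normalized counts. For Igfbp7 they were Sh2b3 (0.997), Il2rg (0.994) and Phf11d (0.992), and 200 of 5533 genes had an r over 0.95. Those of Igf2r were Cldnd1 (0.997), Arhgap23 (0.992) and Farp1 (0.992), with 70 of 5533 over 0.95. Those of Igf2 were 2310022B05Rik (0.996), Rsu1 (0.992) and Pcdhga12 (0.990), with 136 of 5534. All genes of a library share its size factor. With 6 libraries in 2 groups, the group difference alone gives many genes a high r, so these are descriptions.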

How the data were processed

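The 6 QuantSeq 3′ mRNA libraries, 3 per group, were grouped by their labels. The authors mapped the reads to mm10 with TopHat2 and then Bowtie2, obtained gene counts through GenomicRanges and used DESeq in metaseqR for normalization. Molecular identifiers and the use of strand are not given in the sources used here. The deposited values are the log2 of the normalized count plus 1. The authors' deposited table also gives a signal per base of gene model, which was used to compare levels between genes, and a GC content fraction, which enters no test. A further 7 columns hold the authors' own test results and group means and were not used.

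The log2 values were fitted with limma 3.58.1 (R 4.3.3; eBayes with trend, prior degrees of freedom 6.48, residual 4), with a pseudocount of 1, over the 26402 of 49548 genes whose 6 values sum to 1 or more normalized counts. Limma was the planned test for normalized values. P-values were adjusted by Benjamini-Hochberg. In the fit without a block they set the group difference against the spread between libraries of a group, with all 6 libraries taken as independent. A pool shared by 2 libraries is allowed for only in the replicate block. A value of 0 allows up to 3 counts, which covers counting error only. The test was checked on simulated data with independent libraries. Of 200 genes changed by a fold of 8, it recovered 154, with 2 false calls. Smaller fold changes and paired libraries were not simulated. Figures were drawn with Matplotlib 3.10.9 in Python 3.11.15 with NumPy 2.4.6 and pandas 2.3.3.

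The genes, lists and tests were chosen with earlier results of these data known. Named genes are the 10 members, called pathway genes (2 of them are counted but not reported here), up to 2 of the most abundant genes of each pathway list, and for each called member the 3 genes most like it. Igfbp1, Igfals, Pappa, Pik3cb, Pik3r3 and H19 were picked from those lists after their values were seen. Alternatives were library-sum scaling, other filters and pseudocounts, limma-voom, a replicate block and leaving out each library. Scaling to pan-fibroblast markers was added after seeing the data.

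Deviations from the group means correlated at 0.245, 0.125 and 0.144 between same-numbered libraries and -0.245 to 0.150 between others (13515 genes). The highest value between others exceeded 0.125 and 0.144, and centering on group means of 3 libraries ties these values together. The correlations therefore do not settle whether equal numbers mark a shared pool, and the labels do not say so. The numbers were taken as pairs only for the replicate block and the pair counts.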

Additional observations from a re-analysis of the deposited data

How the results depend on the processing

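The counts of calls moved under these settings, and the causes were not tested. Against 703 genes higher, 517 lower, 3 IGF genes and 6 pathway genes called, the fit without a filter gave 21, 7, 0 and 0. In that fit 3 IGF and 15 pathway genes had an unadjusted p under 0.05, against 1736 genes higher and 2058 lower of all 49548. A pseudocount of 0.1 gave 336 lower genes and 1 IGF gene, Igfbp7, with Igf2 at a limma adjusted p of 0.054 and Igf2r at 0.0512. Limma-voom gave 798 lower genes. Scaling to pan-fibroblast markers gave 228 higher, 8875 lower and 25 pathway genes, and turned the log2 fold changes of Igf1 (-0.73), Igf1r (-0.52), Igf2r (-0.25), Igfbp3 (-1.20), Igfbp4 (-1.53), Igfbp5 (-0.72) and Igfbp6 (-1.53). All 25 pathway calls were then lower. Leaving out 1 library, with fewer samples, gave 11 to 453 higher, 1 to 442 lower, 0 to 1 IGF genes and 0 to 4 pathway genes. In these fits the log2 fold change of Igfbp4 lay between -0.13 and 0.72 and that of Igfbp6 between -0.23 and 0.80, turning in 2 and 3 of them. Igfbp2, at 0 to 5 counts, is near the 3 counts that a value of 0 allows.

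The replicate block, which pairs libraries by number, gave 0 higher and 0 lower genes, 0 IGF and 0 pathway genes, with a smallest adjusted p of 0.0612 (limma). At an unadjusted p under 0.05 it held 1851 higher and 2567 lower genes and 6 IGF genes. With the block over genes averaging 10 or more normalized counts, 981 genes were higher and 871 lower, and 4 IGF and 6 pathway genes were called. Library-sum scaling, a mean of at least 10 and a pseudocount of 10 each kept 3 IGF calls.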
